A study of Mus musculus with 16 samples.

Results

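The genes examined here encode the proteins of the cytosolic ribosome. They were the 83 of 48397 gene symbols in the count files that start with Rpl or Rps and go on with a plain subunit number, the letter a or the stalk proteins' p0, p1 or p2, with or without a closing a, l or x. Symbols of processed pseudogenes (those with -ps) and of the S6 kinases do not match this pattern. The members comprised 48 genes of the large subunit, 32 of the small subunit and the 3 stalk genes Rplp0, Rplp1 and Rplp2. The RNA came from primary hippocampal neurons of newborn wild-type CD1 mice that had received AraC, an inhibitor of dividing cells, in their first days of culture. Between 10 and 17 days in vitro (DIV), neurons were grown with concentrated medium conditioned by immortalized astrocytes. For groups apoE2, apoE3 and apoE4 these astrocytes were homozygous for the human APOE ε2, ε3 or ε4 allele in place of the mouse gene. For the control group they lacked the gene altogether (Apoe-/-). Every group thus received astrocyte medium, which differed in the apoE it carried. Each medium came from its own astrocyte line, so effects of the line and of apoE cannot be told apart. Each group had 4 libraries numbered 1 to 4, made from total RNA after removal of ribosomal RNA. The study describes 4 independent cultures per group, and what a shared number stands for is not given in the sources used here.

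Ribosomal proteins join ribosomal RNA in the nucleolus to form a small subunit, which reads the mRNA, and a large subunit, which makes the peptide bond. Their mRNAs are among the most abundant of a cell and belong to the TOP mRNAs, which begin with a run of pyrimidines (C or T) that lets the mTORC1 kinase control their translation. In neurons these mRNAs are also found in dendrites and axons, where local protein synthesis takes place.

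Levels are given as CPM (each gene's reads as a share of its library's reads) after TMM scaling of library sizes, and levels of different genes are compared only per kilobase (kb) of the principal coding transcript. The tested members had short transcripts, with a median of 761 bases against 2732 bases over the 16492 tested genes with a known length. Rplp1, a stalk protein that helps to recruit the elongation factors, was the most abundant member with 504 CPM per kb (374 to 647 over the 16 libraries). Rpl41, which encodes a very short basic peptide of the large subunit, followed with 438 CPM per kb (333 to 593). Rps14 of the small subunit came next with 395 CPM per kb (342 to 484), and the ranges of these 3 genes overlapped. At the other end stood Rpl24 with 0.599 CPM per kb (0.232 to 1.05), Rps4l with 4.22 (3.09 to 5.68) and Rpl35 with 11.2 (5.10 to 15.9). Of the length of Rpl24, 47.0% is shared with another annotated gene on the same strand, and 66.2% of Rpl35 lies opposite other genes, so that these 2 levels are uncertain and the part of the overlap was not tested. Rps4l is annotated as a transcribed processed pseudogene and shares sequence with Rps4x.

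**Figure D1:**
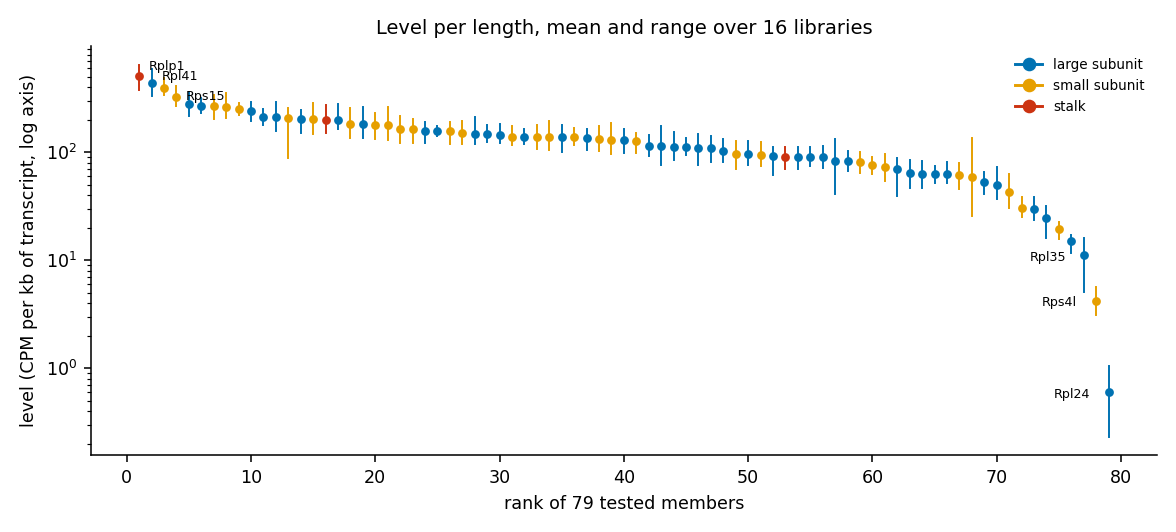
Level of each of the 79 tested members in CPM per kb of transcript (log axis), ranked, with points for the mean and lines for the range over the 16 libraries, coloured by large subunit, small subunit or stalk. Most members lie within a narrow band, Rplp1 (504) and Rpl41 (438) lead it, and Rps4l (4.22) and Rpl24 (0.599) fall far below it.

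Of the 83 members, 79 passed the filter on low counts and were tested (44 large subunit, 32 small subunit, 3 stalk). The other 4 are copies with a closing l. Rpl10l was at 0 in all 16 libraries, Rpl39l had 24 counts in all (0 at 7 libraries), Rpl3l had 43 counts (0 at 3 libraries), and Rpl6l, a processed pseudogene, had 115. The copies were lower than their parent genes. Rpl3 reached 146 CPM per kb against 0.0801 for Rpl3l, and Rpl39 reached 114 against 0.078 for Rpl39l. Rpl10 reached 137 CPM per kb, and Rps4x reached 183 against 4.22 for Rps4l. The difference was smaller for Rps27 and its p53-responsive paralog Rps27l (268 and 59.3 CPM per kb) and for Rpl36a and Rpl36al (95.9 and 62.3). Near-identical copies and 274 pseudogene symbols of this family, 230 of them with counts, can share reads with the members, so the split between copies is uncertain.

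Because a pyrimidine run at the first bases of the mRNA is the shared feature of this family, the start sites were read from RefSeq promoters (GRCm38.p6). These held 61 of the 83 members, with 73 starts. A run of at least 8 C or T bases on the gene's strand lay within the 30 bases around a start in 26 of the 61 members (42.6%) and in 3760 of all 27025 genes (13.9%). The motif CCGGAAG, bound by ETS factors, occurred on either strand of the 300 bases from 250 before to 50 after a start in 25 members (41.0%) and in 9.93% of all genes. AAGATGGC, the core bound by YY1, occurred in 5 members (8.20%) and in 3.19% of all genes. Both motifs contain AAG and can overlap. A match describes letters in a window, not a bound site. The 8 windows printed below, each 15 bases before and 15 from the annotated start on, belong to the 4 genes with the largest differences between replicate numbers and to the 4 with among the smallest of those with a promoter entry, with the longest run of C and T in capitals.
Rpl35a (chr16:33056467-33056496, plus strand): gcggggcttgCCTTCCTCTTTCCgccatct
Rps27l (chr9:66946071-66946100, plus strand): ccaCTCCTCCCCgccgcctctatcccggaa
Rpl18 (chr7:45718056-45718085, plus strand): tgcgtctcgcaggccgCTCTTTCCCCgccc
Rps4x (chrX:102189377-102189406, minus strand): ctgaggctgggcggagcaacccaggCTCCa
Rpl35 (chr2:39005117-39005146, minus strand): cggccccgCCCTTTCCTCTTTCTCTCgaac
Rpl19 (chr11:98026909-98026938, plus strand): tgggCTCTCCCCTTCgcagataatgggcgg
Rpl15 (chr14:18270972-18271001, minus strand): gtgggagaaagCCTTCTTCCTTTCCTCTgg
Rpl13a (chr7:45128731-45128760, minus strand): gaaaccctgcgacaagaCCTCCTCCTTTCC
Long runs stood in both sets, and Rps4x, whose mRNA differed between numbers, had a longest run of 4 bases at this start. In Rps27l and Rpl19 the run lies wholly before the annotated start and so outside the annotated mRNA. The counts of runs include such cases. Where a gene had several starts, the start with the longest run is printed. Of the tested members with a promoter entry, 16 of 26 with a run of 8 or more and 17 of 32 without one differed between the replicate numbers described further on, as did 63.8% of all tested genes.

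The libraries held 14087723 to 34248172 counts on genes. Reads not assigned to a gene made up 38.4% to 73.7% of each library, and the 4 libraries of number 1 held between 61.8% and 73.7% of such reads. A single gene, Lars2, which lies beside a repeat resembling ribosomal RNA, took 0.359% to 15.02% of gene counts, with apoE4 library 2 and apoE2 library 4 the lowest. Neuron markers were well expressed, with a summed level of 4341 to 10471 CPM, and markers of other cells were also present: astrocytes 1433 to 7027 CPM, oligodendrocyte lineage 130 to 1005 CPM, vascular cells and fibroblasts 32.0 to 544 CPM, and microglia 18.5 to 129 CPM. In such bulk RNA, fewer cells of a type and less RNA per cell cannot be told apart.

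The summed level of the 83 members differed little between groups and more between replicate numbers. In the control group it was 7865, 7256, 7205 and 9891 CPM in libraries 1 to 4, and in apoE2 it was 9506, 7902, 7080 and 8813 CPM. In apoE3 it was 9239, 8395, 7710 and 10528 CPM, and in apoE4 8207, 8517, 7293 and 8585 CPM. The groups overlapped, and in each of them library 3 was the lowest. Group means were 8054 ± 1261 CPM for control, 8325 ± 1059 for apoE2, 8968 ± 1213 for apoE3 and 8151 ± 595 for apoE4 (SD, n = 4). Scaled by total counts alone they were 8330, 8274, 8895 and 8116 CPM, so that apoE2 and apoE4 then lay below control. By number the means were 8704 ± 792, 8017 ± 573, 7322 ± 273 and 9454 ± 915 CPM (SD, n = 4). All members together made up 0.655% to 1.09% of gene counts. The summed CPM of the 48 large subunit genes, without the stalk, was 1.13 to 1.24 times that of the 32 small subunit genes. This ratio was lowest in apoE4 library 4. It was scaled neither by the number of genes nor by length, so it does not compare the level per gene.

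**Figure D2:**
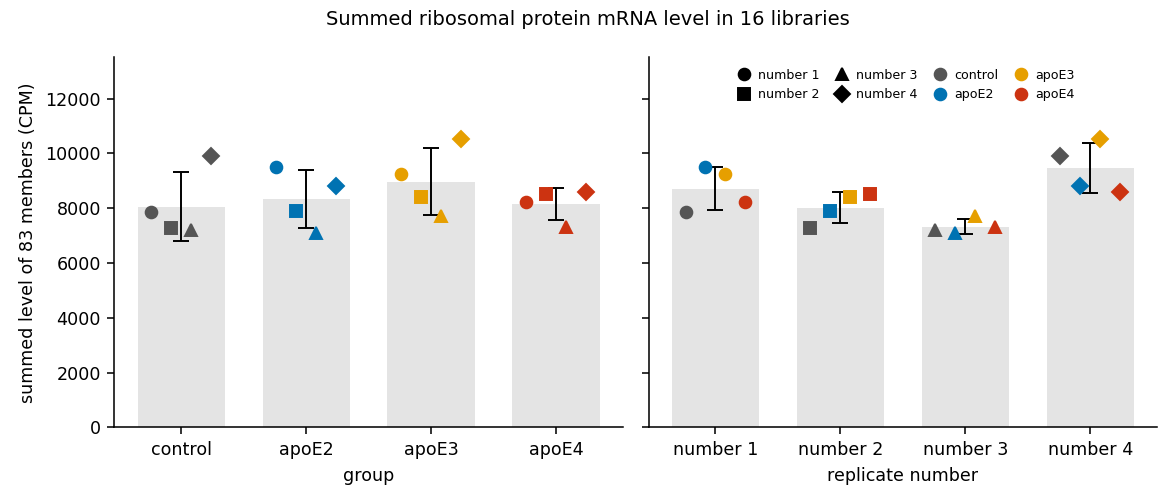
Summed level of the 83 members in CPM by group (left) and by replicate number (right), where bars are means, error bars are SD over 4 libraries, colours mark groups and symbols mark numbers. Group means lie between 8054 and 8968 CPM, while number 3 averages 7322 CPM and number 4 averages 9454 CPM.

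The first question was whether apoE3 lipoproteins changed these mRNAs relative to the apoE-free control. No single member passed an adjusted p of 0.05, and 77 of 79 had a positive log2 fold change, with a median of 0.17 (middle 50% from 0.11 to 0.23), while the median over all 17038 tested genes was 0.02. One member reached an unadjusted p under 0.05, where 6.43% of all genes did, and 0.00587% of all genes passed the adjusted test. Members higher in apoE3 than in the control library of the same number, in all 4 numbers, were 48 of 79, and 1 was lower in all 4 (18.6% and 16% of all genes). By number the median of the members lay 0.08 to 0.26 log2 units above control. Rps28, a small protein close to the mRNA exit of the small subunit, had 57.1, 46.4, 48.5 and 70.0 CPM in the control libraries and 69.01, 68.97, 62.6 and 77.8 CPM in apoE3. It was higher in each number, but the groups overlapped because of control library 4. The log2 fold change was 0.33 (95% interval 0.01 to 0.64, adjusted p = 0.770, edgeR quasi-likelihood test with Benjamini-Hochberg adjustment). Rpl39, which lines the peptide exit tunnel, had 58.1, 57.6, 62.7 and 81.2 CPM in control and 75.6, 83.8, 72.3 and 78.8 CPM in apoE3. Its log2 fold change was 0.26 (adjusted p = 0.772, edgeR), and it was lower in apoE3 in number 4. For Rps12 the log2 fold change was 0.29 (adjusted p = 0.775, edgeR) and 0.45 without control library 4. The widest value was that of Rps27l, 0.67, but its 95% interval ran from -0.45 to 1.78. The 2 members with negative values were the pseudogene Rps4l at -0.24 and Rpl4 at -0.03, which ranged from -0.11 to 0.06 when single libraries were left out and was positive without control library 4, apoE3 library 2 or apoE3 library 3.

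Same-numbered libraries deviated together, so the fit was repeated with the number as a block. It called 1 member in apoE3 against control: Rps9, a protein needed for decoding accuracy (chr7:3703993-3706897, plus strand). Rps9 had 124, 99.8, 102 and 173 CPM in control and 159, 126, 120 and 195 CPM in apoE3. Each apoE3 library lay above the control library of its number, while the groups overlapped across numbers. With the block the log2 fold change was 0.27 (SE 0.08, adjusted p = 0.0458, edgeR), and without it 0.26 (SE 0.23, adjusted p = 0.812). The call of Rps9 was lost when transcript length and GC content entered the blocked fit. The blocked fit called 11.7% of all genes in this comparison, so 1 of 79 members is a smaller share than that of all genes. Beside the members' positive values stood higher summed markers of non-neuronal cells. Astrocyte markers summed to 2480 ± 773 CPM in control and 4276 ± 2184 CPM in apoE3 (SD, n = 4), with 10 of 11 markers positive, a median log2 fold change of 0.82 and 9 of 11 called with the block. Vascular and fibroblast markers were positive in 11 of 11 (3 called with the block), and neuron markers in 3 of 16, with 2 called higher and 3 lower. Oligodendrocyte lineage markers were positive in 12 of 12 (median 0.81, 5 called with the block). Microglia markers were positive in 9 of 12 (median 0.54) and proliferation markers in 11 of 12 (median 0.53), with 1 called in each list with the block. Genes of the mitochondrial genome were positive in 13 of 15 (median 0.47, 5 called with the block), and RNA quality features, such as Lars2 and other noncoding or repeat-bearing genes, in 7 of 9 (median 0.35 without the block and 0.09 with it, 1 called with the block). The part of these cells and features in the members' values was not tested. The median was 0.09 without apoE3 library 4, 0.29 without control library 4, 0.12 when scaled by total counts alone and 0.09 with offsets for transcript length and GC content.

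For apoE4 against control the members were evenly spread around 0: 39 had positive and 40 negative log2 fold changes, with a median of 0.00 that turned from just under to just over 0 with the replicate block. It was 0.11 without control library 4, 0.04 without apoE4 library 3 and -0.05 when scaled by total counts alone. No member passed the adjusted test, which 0.194% of all genes passed. The 1 member with an unadjusted p under 0.05 (3.3% of all genes) was Rps2, a protein at the mRNA entry of the small subunit (chr17:24718116-24721929, plus strand). Rps2 had 208, 270, 229 and 248 CPM in control and 275, 299, 272 and 352 CPM in apoE4. In apoE2 it had 257, 258, 247 and 244 CPM, and in apoE3 241, 271, 243 and 269 CPM. The 4 apoE4 libraries lay above all 12 others, closely so for apoE4 library 3, and each was the highest of its number. The log2 fold change against control was 0.33 (SE 0.10, 95% interval 0.10 to 0.55, adjusted p = 0.679, edgeR). With the replicate block it was 0.33 (SE 0.08, 95% interval 0.16 to 0.49, adjusted p = 0.0357), the only member called with the block, as were 3.3% of all genes. That call was lost when transcript length and GC content entered the blocked fit (0.27, adjusted p = 0.0877, edgeR). DESeq2 without the block, like edgeR without it, did not call Rps2 (0.32, adjusted p = 0.0960). Against apoE2 the log2 fold change of Rps2 was 0.25 (adjusted p = 0.794) and against apoE3 it was 0.23 (adjusted p = 0.9999), with blocked adjusted p-values of 0.105 and 0.182 (edgeR). Without apoE4 library 4 these values were 0.17 and 0.14. Of its variance in log2 CPM, 53.9% lay between groups and 24.1% between numbers, the reverse of most members. Rpl12 (0.18) and Rpl41 (0.14) followed Rps2 by p among positive values, and Rpl22 (-0.19), Rpl3 (-0.14) and Rps15a (-0.12) led the negative ones. Leaving out 1 library moved these values widely: without control library 4 they were 0.27 for Rpl12, 0.28 for Rpl41, -0.10 for Rpl22, -0.03 for Rpl3 and -0.06 for Rps15a. Rpl41 was at 0.07 without control library 2 and at 0.09 without control library 1, and Rpl22 and Rps15a were at -0.12 and -0.06 without apoE4 library 3. Rpl22, an RNA-binding protein that is not essential for translation, and Rpl3, at the peptidyl transferase centre, did not pass the test in either fit. Astrocyte markers were positive in 11 of 11 against control (median 0.68, 4 called with the block), as were vascular and fibroblast markers (median 0.73, 2 called with the block), beside the members' median of 0.00. Their part in the members' values was not tested.

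Against control, apoE2 gave no member past either threshold. Rpl39 had the smallest p, with a log2 fold change of 0.21 (SE 0.13) that was 0.13 without apoE2 library 1 and 0.34 without control library 4. None of the 79 had an unadjusted p under 0.05 (2.79% of all genes), and 0% of all genes passed the adjusted test. The median was 0.06, with 63 positive and 16 negative values. It was higher in 2 of 4 numbers, ranging from -0.15 to 0.25, and turned to -0.02 without apoE2 library 1. It was 0.17 without control library 4, 0.02 with the length and GC offsets and 0.00 when scaled by total counts alone. Rps29, a zinc finger protein of the small subunit whose mRNA is very short, had the largest value, 0.34 (SE 0.28). That value was 0.54 without control library 4 and 0.13 without control library 2, in which Rps29 stood at 36.4 CPM against 69.2, 73.7 and 95.9 CPM in the other control libraries. With the block, no member was called in this comparison (1.73% of all genes). Astrocyte markers were positive in 9 of 11 (median 0.27) and oligodendrocyte lineage markers in 11 of 12 (0.30). Proliferation markers were positive in 11 of 12 (0.32, 1 called with the block) and genes of the mitochondrial genome in 13 of 15 (0.38). Vascular and fibroblast markers were positive in 6 of 11, microglia markers in 8 of 12 and neuron markers in 5 of 16. Their part in the members' values was not tested.

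Between isoforms, most members had their higher value in apoE3, and none passed the adjusted test. Against apoE2, apoE3 gave a median log2 fold change of 0.11, with 74 positive and 5 negative values. None had an adjusted or unadjusted p under 0.05, where 0% and 2.28% of all genes did. The highest values were those of Rpl24 (0.53), which had 3 to 25 counts per library, and Rps27l (0.44, SE 0.52). By p, Rpl36 (0.26) and Rpl13 (0.16) led. Rpl36 was at 0.40 without apoE2 library 1 and at 0.15 without apoE3 library 4, and Rpl13 was at 0.10 without apoE3 library 4 or apoE2 library 3. The members' median was 0.06 with the length and GC offsets. Markers of other cells were also higher in apoE3 than in apoE2 by their medians: astrocyte markers by 0.57 (11 of 11 positive), oligodendrocyte lineage by 0.48 (12 of 12), microglia by 0.51 (10 of 12) and vascular cells and fibroblasts by 0.61 (11 of 11), while 4 of 16 neuron markers were positive. None of these markers was called in this comparison with or without the block. In apoE4 against apoE3 the median was -0.18, with 3 positive and 76 negative values. In all 4 numbers 32 members were lower and 1, Rps2, was higher (12% and 12.5% of all genes). The median was -0.11 with the length and GC offsets and -0.09 without apoE3 library 4. Of the 79, 4 members had an unadjusted p under 0.05 (4.7% of all genes) and none passed the adjusted test (0.147% of all genes). Rpl39 had 57.3, 59.3, 56.3 and 75.1 CPM in apoE4, with 3 of the 4 libraries below all apoE3 libraries. Its log2 fold change was -0.32 against apoE3 (adjusted p = 0.971) and -0.28 against apoE2 (adjusted p = 0.910, edgeR). Rpl27a (-0.23) and Rpl13a (-0.28), whose protein is also part of the interferon-activated GAIT complex, were the other 2 lower members, and Rps2 was the higher one. In apoE4 against apoE2 the median was -0.05, with 19 positive and 60 negative values, and it was 0.00 without apoE2 library 1 and -0.13 without apoE2 library 3. Rps2 and Rpl39 were the 2 members with an unadjusted p under 0.05 (5.34% of all genes), and 0.252% of all genes passed the adjusted test. Markers of other cells ran the opposite way to the members here, with 11 of 11 astrocyte markers (median 0.44, 1 called with the block) and 11 of 11 vascular and fibroblast markers (median 0.55, 2 called with the block) positive. The replicate block called no member in these 3 comparisons, while it called 1.31% of all genes in apoE3 against apoE2, 4.44% in apoE4 against apoE2 and 1.77% in apoE4 against apoE3. Comparisons with a group in common share its libraries and are not independent of each other. In apoE4 against apoE3, neuron markers were positive in 12 of 16 (median 0.14, 1 called higher with the block). Astrocyte markers were positive in 2 of 11 (median -0.16), as were vascular and fibroblast markers (2 of 11, median -0.16), with none called in either fit. Markers of oligodendrocyte lineage and microglia also had negative medians in apoE4 against apoE3, at -0.33 and -0.25. Without the block none of the 12 in each list was called, and with it 1 of the oligodendrocyte list was. Genes of the mitochondrial genome were negative in 15 of 15 (median -0.18), with none called in either fit. Their part in the members' values was not tested.

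**Figure D3:**
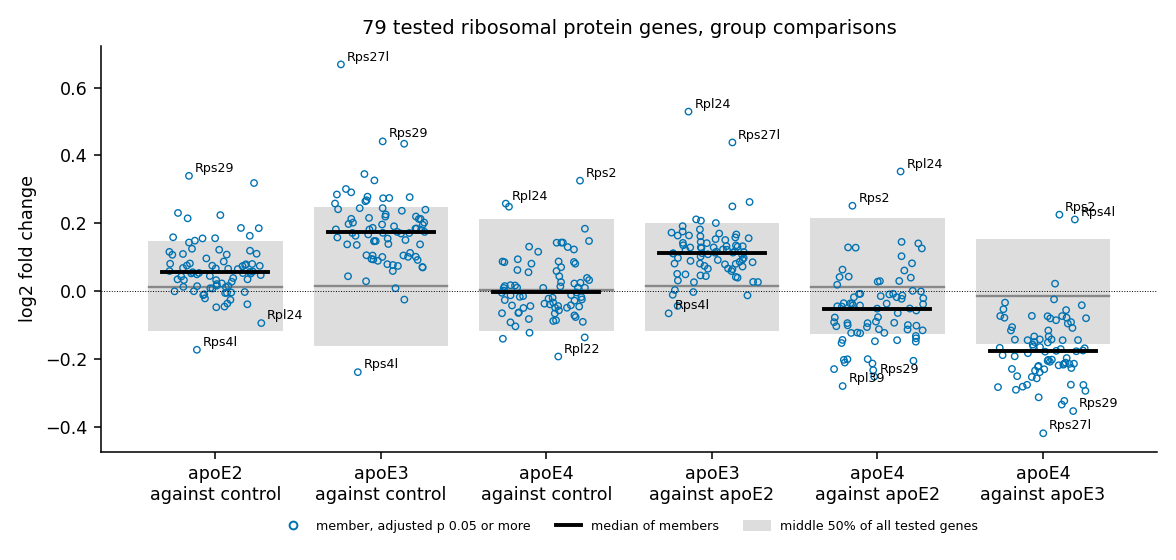
Log2 fold change of each of the 79 tested members (open circles) in the 6 comparisons between groups, with the members' median as a black line and the middle 50% of all tested genes as a grey box with its median. The members' medians are 0.17 in apoE3 against control and -0.18 in apoE4 against apoE3, and no circle passes an adjusted p of 0.05 in the fit without the block.

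The members differed far more between replicate numbers. In a test over the 4 numbers with group in the model, 49 of 79 had an adjusted p under 0.05, as did 63.8% of all genes. The share was thus close to that of all genes, and it was higher in the small subunit (25 of 32) than in the large subunit (22 of 44), a difference that was not tested. Of the variance in log2 CPM, a median of 54.7% lay between numbers and 15.7% between groups, against 56.1% and 14.4% over all genes. The members' median SD was 0.22 log2 units against 0.37 over all tested genes, in a comparison not matched for level. Number 4 had the highest mean in 63 members and number 3 the lowest in 62, and the full order 4, 1, 2, 3 held in 43.

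Number 3 was the low one. Compared with the mean of the other 3 numbers, 47 members were lower and none was higher, where 19.5% of all genes were lower and 15.7% higher. In number 4, 43 were higher and 1 was lower (30% and 23% of all genes). Number 1 had 8 higher and none lower (12.3% and 7.71%), and number 2 had 3 higher and 15 lower (21.6% and 23.8%). The medians were 0.11, -0.08, -0.24 and 0.21 for numbers 1 to 4, beside medians of 0.02, 0.02, -0.05 and 0.02 over all genes. Without apoE2 library 1 the median of number 1 was 0.04, and without apoE4 library 4 it was 0.07. The median of number 2 was -0.02 without control library 2, -0.05 without apoE2 library 2 or apoE3 library 4, and -0.15 without apoE4 library 2. Scaled by total counts alone, the medians were 0.02 in number 1, -0.01 in number 2 and 0.32 in number 4. With offsets for transcript length and GC content, the medians moved to 0.06 in number 2, a change of sign, and to 0.02 in number 4, where 18 members were then higher and 4 lower. Cell type markers moved with the numbers. Vascular and fibroblast markers averaged 219, 34.0, 44.3 and 375 CPM in numbers 1 to 4 microglia markers 45.4, 31.6, 22.8 and 95.6 CPM, and oligodendrocyte lineage markers 774, 143, 272 and 706 CPM. Astrocyte markers averaged 3569, 1627, 3248 and 4853 CPM, and neuron markers 6718, 9151, 9887 and 5481 CPM. All 16 neuron markers, 11 of 11 astrocyte, 12 of 12 microglia, 12 of 12 oligodendrocyte lineage and 10 of 11 vascular and fibroblast markers tested differed between numbers. Proliferation markers differed in 10 of 12, with 11 called higher in number 4 and 10 lower in number 2. Genes of the mitochondrial genome, in contrast, were positive in 15 of 15 in number 3 (median 0.33, 6 called higher) and in 1 of 15 in number 4. The part of these cells and features in the members' differences was not tested.

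**Figure D4:**
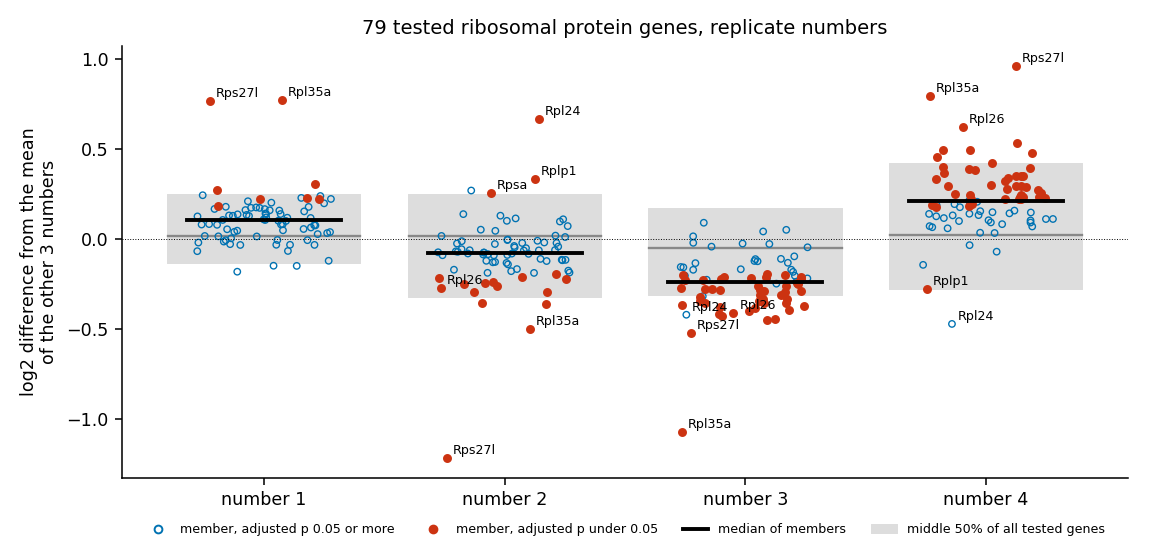
Log2 difference of each of the 79 tested members in each replicate number from the mean of the other 3 numbers, with filled circles for an adjusted p under 0.05, a black line for the members' median and a grey box for the middle 50% of all tested genes. Number 3 has 47 filled circles below 0 and number 4 has 43 above it, and Rpl35a and Rps27l lie farthest from the rest.

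Rpl35a, a large subunit protein mutated in some cases of Diamond-Blackfan anaemia (chr16:33056453-33060189, plus strand), differed most. Its levels in number 1 were 54.7, 54.7, 60.4 and 53.4 CPM in control, apoE2, apoE3 and apoE4. In number 2 they were 24.5, 28.4, 31.5 and 30.8 CPM, and in number 3 20.99, 20.2, 21.6 and 22.9 CPM. In number 4 they were 65.0, 57.7, 60.6 and 42.7 CPM. Every library of numbers 1 and 4 lay above every library of numbers 2 and 3, and 94.7% of its variance lay between numbers. The log2 differences from the other numbers were 0.77, -0.50, -1.07 and 0.79 (SE 0.09 to 0.10, adjusted p over all numbers 1.18e-07, edgeR). Rps27l (chr9:66946086-66949516, plus strand), which p53 induces, came next with means of 39.8 ± 10.5, 13.95 ± 1.3, 20.0 ± 1.7 and 44.6 ± 16.7 CPM (SD, n = 4). Within number 4 it ranged from 29.1 CPM in apoE2 to 66.9 CPM in apoE3, and the log2 differences were 0.77, -1.21, -0.52 and 0.96 (adjusted p = 4.69e-06, edgeR). Its parent gene Rps27 also differed between numbers (adjusted p = 0.000843).

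Rpl18, Rps4x and Rps9 followed, with F values of 34.1, 33.2 and 30.7 and adjusted p-values of 5.87e-06, 6.73e-06 and 9.96e-06 (edgeR). Rpl18 ranged from 89.4 to 113 CPM in number 1 and from 105 to 121 CPM in number 4, and from 67.8 to 85.9 CPM in numbers 2 and 3. Rps4x, the X-linked gene of a small subunit protein, ranged from 177 to 250 CPM in numbers 1 and 4 and from 132 to 154 CPM in numbers 2 and 3. A complete separation of numbers 1 and 4 from numbers 2 and 3 was looked for after the values were seen and held for 9 of 79 members, as it did for 6.65% of all genes: Rpl6, Rpl7, Rpl7a, Rpl8, Rpl18, Rpl35a, Rps4x, Rps18 and Rps27l. Rpl26, a regulator of p53 translation, differed mainly in number 4 (log2 difference 0.62, adjusted p over all numbers 4.22e-05), where it stood at 85.9, 72.2, 91.9 and 74.3 CPM in control, apoE2, apoE3 and apoE4 against 40.4 to 67.3 CPM elsewhere.

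A few members went the other way. Rplp1 had 204, 250, 246 and 224 CPM in number 1 (control, apoE2, apoE3, apoE4) and 252, 293, 323 and 320 CPM in number 2. In number 3 it had 251, 248, 278 and 269 CPM, and in number 4 230, 190, 258 and 187 CPM. It was thus highest in number 2 (log2 difference 0.33, adjusted p = 0.00241) and lowest in number 4 (-0.28, adjusted p = 0.00874, edgeR), the 1 member lower there. Rpsa, which also serves as a laminin receptor, was higher in number 2 (0.25, adjusted p = 0.00323), with means of 202, 249, 195 and 230 CPM. The third gene higher in number 2 was Rpl24 (0.67, adjusted p = 0.0468), with 150 counts in all 16 libraries. The smallest F values were those of Rps29 (0.0149), Rpl13a (0.0698) and Rpl29 (0.126), with adjusted p-values of 0.998, 0.977 and 0.949 (edgeR).

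**Figure D5:**
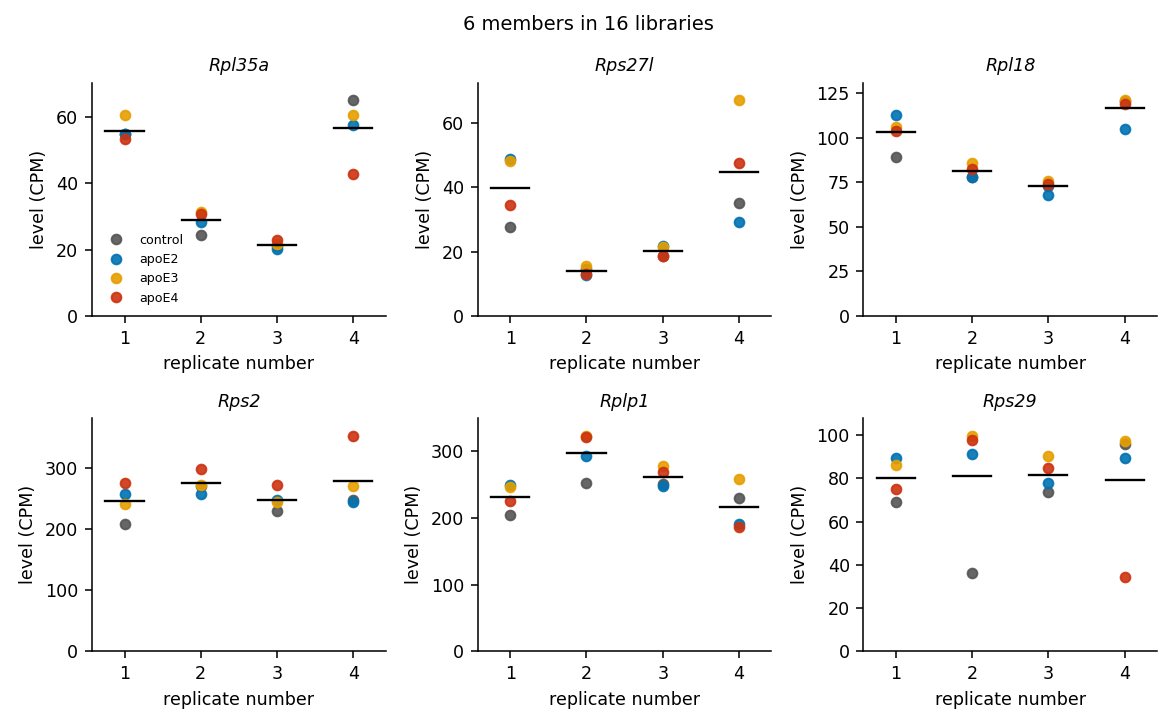
Levels in CPM of Rpl35a, Rps27l, Rpl18, Rps2, Rplp1 and Rps29 in the 16 libraries by replicate number, with colours for the groups and black lines for the mean of each number. Rpl35a, Rps27l and Rpl18 are high in numbers 1 and 4, Rplp1 is highest in number 2, Rps2 is highest in apoE4 in every number, and control library 2 (36.4 CPM) and apoE4 library 4 (34.4 CPM) stand low for Rps29.

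The other members singled out for their roles followed the same order in most cases. Rplp0, the stalk base, averaged 273, 248, 227 and 326 CPM in numbers 1 to 4 (adjusted p = 0.000697, edgeR), and Rps3, which also acts in DNA repair, averaged 267, 236, 205 and 307 CPM (adjusted p = 0.000134). Rps19, the gene most often mutated in Diamond-Blackfan anaemia, also differed (adjusted p = 0.000419), as did Rpl10 (0.000253), Rps27a, which is made as a ubiquitin fusion (0.00446), Rpl22 (0.00282), Rps6, the substrate of the S6 kinases (0.013), Rpl36a (0.0241) and Rpl3 (0.047). Not past the threshold were Rpl5 and Rpl11, which bind Mdm2 together with 5S ribosomal RNA, with adjusted p-values of 0.0511 and 0.109. The same held for Rplp2 (0.452), Rpl39 (0.167), Rpl36al (0.237) and Rps4l (0.181).

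The flat profile of Rps29 and some others over numbers came with 2 libraries of low values. Control library 2 and apoE4 library 4, chosen after their values were seen, both lay below all 14 other libraries in 14 of 79 members, which is 17.7%, and in 0.875% of all tested genes. Rps29 (chr12:69157722-69159186, minus strand) stood at 0.407 and 0.384 times the median of the other 14 libraries. Rpl35 stood at 0.432 and 0.496 times that median, and Rpl23a, which lies at the exit tunnel, at 0.539 and 0.498 times. The other 11 were Rpl3, Rpl5, Rpl11, Rpl13a, Rpl19, Rpl27, Rpl27a, Rpl29, Rpl37a, Rplp2 and Rps13. Across all members, apoE3 library 4 was the highest of the 16 in 51 and control library 2 the lowest in 24. Rpl35 and Rpl23a overlap other genes on the opposite strand over 66.2% and 59.7% of their length, and the strand setting of the counts is not given in the sources used here.

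Ribosomal protein and related genes that the naming rule leaves out gave a mixed picture over the numbers, with 4 of 8 tested genes called. Rack1, a scaffold on the small subunit head, averaged 256, 198, 186 and 298 CPM in numbers 1 to 4 (adjusted p = 1.63e-05, edgeR). Rps3a1 (adjusted p = 0.00138), Rpl7l1 (0.000537) and Fau, the ubiquitin-like fusion of Rps30 (0.0068), also differed, each with its lowest mean in number 3 or, for Rpl7l1, in number 2. Rpl22l1 did not pass (0.450). Of all genes, 63.8% differed between numbers, and 30% were higher and 23% lower in number 4. Among translation factors, 17 of 25 differed between numbers, with 14 higher and 2 lower in number 4 and 2 higher and 10 lower in number 3. Ribosome biogenesis factors (40 of 89 called, a smaller share than that of all genes) were split 25 higher to 8 lower in number 4, and mitochondrial ribosomal proteins (23 of 76 called, also a smaller share) 14 to 4. Regulators of mTORC1 and of TOP mRNAs (22 of 41 called) were split 4 higher to 15 lower in number 4.

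In the comparisons of groups without the block these lists held 1 called gene. Eif4ebp2, the main 4E-BP of the brain and a repressor of cap-dependent translation that mTORC1 releases, had 7.54, 5.83, 5.16 and 6.75 CPM in control and 6.62, 6.11, 6.24 and 5.28 CPM in apoE2. In apoE3 it had 10.4, 7.21, 9.06 and 15.9 CPM, and in apoE4 85.9, 29.8, 38.0 and 57.9 CPM. All apoE4 libraries lay above all others. The log2 fold change was 3.06 against control (SE 0.31, adjusted p = 0.002), 3.13 against apoE2 and 2.31 against apoE3 (adjusted p = 0.012, edgeR). With the block, 6 of 41 mTORC1 regulators (3 higher, 3 lower), 2 of 76 mitochondrial ribosomal proteins and 1 of 89 biogenesis factors were called in apoE3 against control, beside 11.7% of all genes. It also called 3 mTORC1 regulators in apoE4 against control, 3 against apoE2 and 2 against apoE3, beside 3.3%, 4.44% and 1.77% of all genes. The median log2 fold change in apoE3 against control was 0.14 for the 8 ribosomal protein and related genes outside the rule and 0.06 for translation factors. It was 0.06 for mitochondrial ribosomal proteins, 0.02 for biogenesis factors and -0.01 for mTORC1 regulators, beside 0.17 for the members. In apoE4 against apoE3 the medians were -0.14, -0.12, -0.10, -0.06 and -0.01 in the same order, beside -0.18.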

How the data were processed

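RNA of 16 libraries (4 groups of 4) was sequenced after depletion of ribosomal RNA. The deposited values are raw counts per gene symbol, which the authors made with STAR on mm10 and HTSeq; the annotation and the strand setting are not given in the sources used here. The 5 summary lines per library (unassigned reads) were left out. The members and gene lists were chosen with earlier results of these data known. Genes were kept by edgeR's filterByExpr (minimum count 10, minimum total 15, proportion 0.7). edgeR 4.0.16 in R 4.3.3 (TMM scaling, quasi-likelihood test, all 16 libraries in 1 fit, Benjamini-Hochberg adjustment over 17038 genes) tested the 6 pairs of groups, and replicate numbers with group in the model, as a joint test followed by each number against the mean of the other 3. CPM are TMM-scaled. A gene counted as called at an adjusted p under 0.05. Where libraries do not come from separate cultures, p-values cover technical spread.

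Same-numbered libraries of different groups had correlated deviations from their group means over all genes (0.362 to 0.831 in every pair, members 0.172 to 0.845). Pairs with different numbers ranged from -0.736 to 0.569 (members -0.766 to 0.704), so the ranges overlapped. The number was also fitted as a block, and the common dispersion then fell to 0.0178 from 0.132. Named members were those fixed by role, the 3 smallest p per direction in each group comparison, every member called (10 by p where over 30), the extremes of the number test and of the level per length. Lengths and GC content came from GENCODE for 96.8% of tested genes. DESeq2 1.42.0, other scalings and filters, a per-gene test after the study's criterion, and leaving out each library were alternatives. One gene outside the naming rule is not reported here.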

Additional observations from a re-analysis of the deposited data

Results flagged for a closer look

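In 12 of 136 pairs of a group and a measure (32 named members and 2 sums), 1 library stood apart from the other 3 of its group by Dixon's criterion on the gap to the nearest of them over the group's range. Chance alone flags about 1 in 20 groups, and no explanation was tested. The apoE2 library 3 was low for Rps28 (49.9 CPM, the others 66.7 to 69.1), Rps29 (77.7, the others 89.6 to 91.4), Rpl13a (14.003, the others 17.0 to 17.3) and Rpl27a (67.1, the others 75.2 to 76.3). The apoE3 library 4 was high for Rpl41 (322 CPM, the others 238 to 251) and Rpl35 (15.1, the others 9.89 to 10.4). Single cases were Rps4l in apoE3 library 2 (4.30 CPM, the others 3.34 to 3.46), Rpl39 in apoE4 library 4 (75.1, the others 56.3 to 59.3), Rpl24 in apoE4 library 2 (0.712, the others 0.305 to 0.339), Rpl15 in apoE2 library 1 (141, the others 124 to 127), Rpl12 in control library 4 (109, the others 86.5 to 88.9) and Rpl29 in control library 2 (13.1, the others 17.5 to 18.3).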

How the results depend on the processing

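In the fit without the block no member was called between groups, whichever library was left out. With the replicate block, chosen as an alternative and not as the main fit, 1 member was called in apoE3 against control (Rps9) and 1 in apoE4 against control (Rps2, 0.33); the block changed no other call of a member between groups, and its calls in the other gene lists are given with them. With offsets for length and GC content, 2 members were lower in number 1, 14 higher and 4 lower in number 2, 1 higher in number 3, and 18 higher and 4 lower in number 4, where the median was 0.02; the median of number 2 was 0.06. In number 2 the balance of called members thus turned, from 3 higher and 15 lower. Scaled by total counts alone, 2 members were higher in number 1, 5 lower in number 2 and 0 lower in number 4, and the summed level in number 3 was 6995 CPM. Without a filter, 4 were higher in number 1 and 31 lower in number 3; without group in the model, 4 were higher in number 1. The cause was not tested.

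Leaving out 1 library at a time, the counts ranged from 3 to 12 higher and 0 to 1 lower in number 1, 2 to 4 higher and 6 to 20 lower in number 2, 0 higher and 29 to 55 lower in number 3, and 27 to 51 higher and 1 lower in number 4, and 35 to 56 members differed between numbers. The libraries that moved a count by over 1.5 times were mostly of the number concerned: 6 lower in number 2 without apoE2 library 2, 7 without apoE3 library 2 and 8 without control library 2; 27 higher in number 4 without apoE3 library 4 and 28 without control library 4; 29 lower in number 3 without apoE2 library 3 and 31 without apoE3 library 3. Of the few higher in number 1, 3 were left without apoE2 library 1 or apoE4 library 1, and 4 without apoE2 library 2 or 3 or apoE3 library 1, and 5 without apoE2 library 4, apoE3 library 3 or apoE4 library 4. Medians ranged from -0.02 to 0.17 in apoE2 against control, 0.09 to 0.29 in apoE3 against control, -0.07 to 0.11 in apoE4 against control (0.11 without control library 4), 0.03 to 0.18 in apoE3 against apoE2, -0.13 to 0.00 in apoE4 against apoE2 and -0.24 to -0.09 in apoE4 against apoE3. Without the 2 libraries lowest in Lars2, an alternative chosen after seeing the data, no member was called between groups and 49 differed between numbers.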
